A study of Mus musculus with 16 samples.

Results

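Schwann_18 is 1 of 28 clusters of cells from mouse brown fat to which the authors gave a name, and it was taken here as every cell that carries that name in their annotation. It holds 500 cells, which is 2.05% of the 24352 named cells of a series of 109723 cells, and it is the 17th of the named clusters by cell number. The other cluster with a Schwann name, Schwann_14, holds 763 cells, so that Schwann_18 made up 39.6% of the 1263 cells named as Schwann cells.

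Schwann cells are the glia of peripheral nerves. Some wrap a single axon in myelin, and others hold bundles of thin axons without myelin. Brown fat is supplied by sympathetic nerves, whose noradrenaline release in the cold turns on heat production, and most sympathetic fibres within tissues are of the thin, unmyelinated kind. Glia reach single-cell libraries of fat through the nerve bundles that are dissected and digested with it.

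The cells came from the stromal vascular fraction, the non-fat cells of the digested interscapular depot, of C57BL6J mice, with no transgene or deletion named in the labels. Mice were kept at 30 °C (thermoneutral housing, 1 week), at 22 °C (room temperature, 1 week), or in the cold at 5 °C, which lasted either 2 or 7 days, with 4 libraries for each housing, made with the 10x Chromium 3' v3 kit. The adipocyte layer, red blood cells and dead cells were removed before loading. The labels give neither the age of the mice nor whether a library is 1 animal or a pool, so the p-values below measure the spread between libraries, which may be technical.

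Libraries held 1473 to 10005 cells in all and, where any cell was named, 357 to 3739 named cells, and 2-day cold replicate 1 had no named cell and enters no share of named cells. The median of UMIs (unique molecular identifiers, the count of distinct RNA molecules) per library was 1978.5 to 9819 over all cells, with the highest value in that same replicate. No Schwann_18 barcode occurred in 2 libraries within the cluster, and 13 of the 500 barcodes were also used by a cell of another library without the name Schwann_18. Gene values were not analysed here, so the name was not checked against Sox10, the transcription factor that marks the Schwann lineage, or Mbp, a protein of compact myelin, and doublets were not called.

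Both Schwann clusters stayed whole at all 8 resolutions of the authors' graph clustering. In the table of named cells the 500 Schwann_18 cells and no other cell formed 1 cluster at each resolution, both when the table was divided into 12 clusters and when it was divided into 38, and no Schwann_14 cell ever joined them. In the table of all cells, which was clustered separately, 496 of the 500 (99.2%) lay in cluster 37 of 61, together with 74 cells without a name. Schwann_14 lay there in cluster 33, with 762 of 763 cells. Clusters are formed from the expression of the cells, so this describes how the authors' partition treats the cells and is no test of a difference between them.

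The cells were spread very unevenly over the libraries. Replicate 3 of 2-day cold held 140 Schwann_18 cells and replicate 3 at room temperature 116, so that these 2 libraries held 51.2% of the cluster. By contrast 4 libraries, thermoneutral replicates 2, 3 and 4 and room-temperature replicate 1, held 1, 3, 3 and 8 cells.

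The share of Schwann_18 among named cells was low in most thermoneutral libraries and higher in 7-day cold. At thermoneutrality the shares were 1.63%, 0.187%, 0.216% and 0.117% in replicates 1 to 4, and replicate 1 stood apart from the other 3. Room-temperature replicates 1 and 2 gave 0.476% and 0.682%, while their counterparts 3 and 4 reached 6.07% and 4.76%. In 2-day cold replicates 2, 3 and 4 gave 1.31%, 9.13% and 0.613%. In 7-day cold the 4 replicates gave 1.53%, 2.72%, 2.13% and 6.38%. Every 7-day library lay above thermoneutral replicates 2, 3 and 4, while 7-day replicate 1 lay just below thermoneutral replicate 1. The 95% Wilson intervals of 2-day replicates 3 and 4, at 7.79% to 10.7% and 0.359% to 1.05%, did not overlap. Shares of named cells depend on how many cells of a library were named. These were 784 of 7355 in 7-day replicate 1, 611 of 8570 in 7-day replicate 3 and 3739 of 10005 in thermoneutral replicate 1. As a share of all cells, Schwann_18 was 0.163%, 0.832%, 0.152% and 2.04% in 7-day replicates 1 to 4. At thermoneutrality it was 0.610%, 0.0583%, 0.0300% and 0.0501% of all cells.

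**Figure D1:**
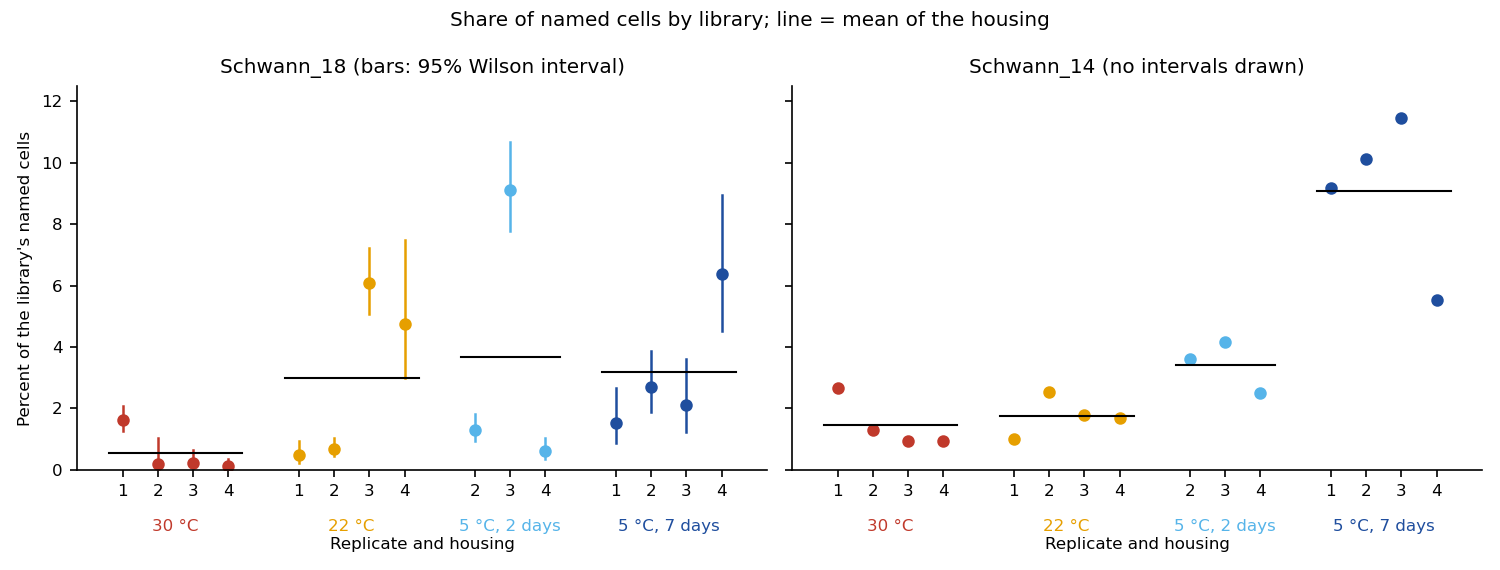
Percent of each library's named cells in Schwann_18 (left, with 95% Wilson intervals) and in Schwann_14 (right), for each replicate under its housing temperature, with a line at the mean of the housing. Schwann_18 was high in single libraries of 3 housings (6.07% and 4.76% at 22 °C, 9.13% after 2 days and 6.38% after 7 days at 5 °C), while the 4 values of Schwann_14 after 7 days, 5.53% to 11.5%, all lay above those of the other housings.

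After 7 days of cold the mean share of Schwann_18 was 3.19% ± 2.18, against 0.538% ± 0.730 at thermoneutrality (SD, n = 4 libraries each). On the log2 odds scale, the cluster was higher by 3.03 ± 1.04 (standard error) and passed (limma, adjusted p = 0.0290). In this comparison 10 of the 27 tested clusters passed, or 37%, and 9 of these, 33.3% of those tested, were higher. The median estimate of the 27 clusters was 0.68, and that of Schwann_18 was number 3 from the top. Taken separately, the lower-numbered pair of replicates (1 and 2) gave a difference of 1.64 and the higher-numbered pair (3 and 4) one of 4.41. The call was lost without thermoneutral replicate 3 or 4 or without 7-day replicate 2 or 4 (limma, adjusted p = 0.0610 to 0.111), with edgeR's quasi-likelihood test (adjusted p = 0.0821), and when shares were taken of all cells of the library (2.19, limma, adjusted p = 0.118). The rise was not particular to Schwann_18. In the same comparison Schwann_14 was number 4 from the top, higher by 2.81 ± 0.46, and passed (limma, adjusted p = 0.000266). Its call, too, was lost when shares were taken of all cells (1.90, limma, adjusted p = 0.0887).

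Room temperature and 2-day cold gave estimates nearly as large that did not pass. Schwann_18 averaged 2.998% ± 2.85 (SD, n = 4) at room temperature against 0.538% ± 0.730 (n = 4) at thermoneutrality, a log2 odds ratio of 2.38 ± 1.04 (limma, adjusted p = 0.580), which was the highest estimate of the 27 clusters, of which none (0%) passed. The estimate was -0.20 in the lower-numbered and 4.96 in the higher-numbered pair, so that the direction did not hold in both. In 2-day cold it averaged 3.68% ± 4.73 (SD, n = 3) against the same thermoneutral libraries, a log2 odds ratio of 2.52 ± 1.12 (limma, adjusted p = 0.135), where 11.1% of the clusters passed. That comparison gave 0.97 in the lower-numbered replicates, where 2-day cold had replicate 2 alone, and 3.77 in the higher-numbered pair. Without thermoneutral replicate 1 it passed, at 3.27 (limma, adjusted p = 0.0395), and without 2-day replicate 3, which holds 140 of the 186 cells of that housing, it was 1.38 (limma, adjusted p = 0.410). These comparisons share the thermoneutral libraries.

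Among the 3 housings below thermoneutrality the cluster did not differ detectably. The log2 odds ratio was 0.65 ± 1.04 for 7-day cold against room temperature (limma, adjusted p = 0.585), 0.15 ± 1.12 for 2-day cold against room temperature (adjusted p = 0.951) and 0.50 ± 1.12 for 7-day against 2-day cold (adjusted p = 0.876). The shares of clusters that passed were 7.41%, 0% and 0%. The standard errors allow differences of several fold in either direction, and each of these 3 estimates changed sign under some alternative. Schwann_14 was called in the first of them: its share was 9.07% ± 2.54 (SD, n = 4) in 7-day cold against 1.75% ± 0.624 (n = 4) at room temperature, with a log2 odds ratio of 2.47 ± 0.46 (limma, adjusted p = 0.00199), a call that was lost when shares were taken of all cells (1.55, adjusted p = 0.192).

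A wider group, cluster 37 of the table of all cells, can be followed in all 16 libraries as a share of all cells, an alternative chosen after the data had been seen. Cluster 37 holds 496 of the 500 Schwann_18 cells and 74 cells without a name, 31 of these in 2-day replicate 1. Its log2 odds ratio was 2.11 ± 0.96 for 7-day cold against thermoneutrality (limma, adjusted p = 0.232, 0% of 55 clusters past the threshold) and 1.86 ± 0.96 for 2-day cold against thermoneutrality (adjusted p = 0.430, 9.09% past it). For room temperature against thermoneutrality it was 2.18 ± 0.96 (limma, adjusted p = 0.923, 0% past the threshold). It was -0.32 for 2-day cold against room temperature (limma, adjusted p = 0.980, 5.45% past it), -0.06 for 7-day cold against room temperature (adjusted p = 0.994, 0%) and 0.25 for 7-day against 2-day cold (adjusted p = 0.910, 1.82%). The 3 estimates against thermoneutrality were above 0, and none passed. They count largely the same cells as the shares of named cells and have the thermoneutral libraries in common, so they are no independent repeat.

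Whether the Schwann clusters moved unequally was tested on their ratio within each library. Schwann_18 cells outnumbered Schwann_14 cells in 4 of 15 libraries, and all 4 carry the replicate number 3 or 4. As a percentage of both clusters together, Schwann_18 was 77.3% and 73.9% in room-temperature replicates 3 and 4 and 32.0% and 21.2% in replicates 1 and 2. In 2-day cold it was 68.6% in replicate 3 but 26.6% and 19.7% in replicates 2 and 4, and in 7-day cold 53.6% in replicate 4 but 14.3% to 21.2% in the other 3. At thermoneutrality it was 11.1% to 37.9%. Room temperature and 2-day cold thus each held at least 1 library rich in Schwann_18 and at least 1 rich in Schwann_14. In 7-day cold no library was clearly rich in Schwann_18. Replicate 4 there held 30 Schwann_18 and 26 Schwann_14 cells, and its Wilson interval, 40.7% to 66.0%, included equal numbers.

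**Figure D2:**
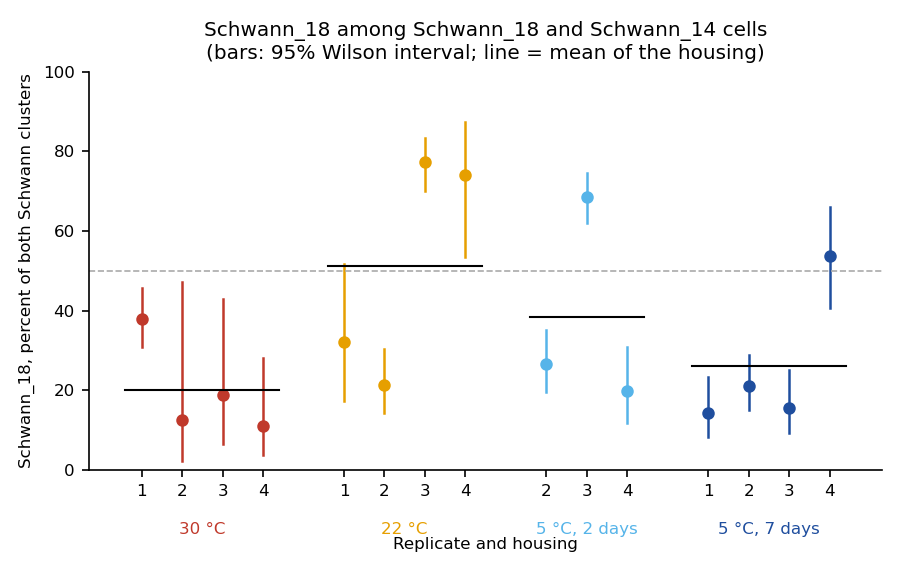
Schwann_18 as a percentage of Schwann_18 and Schwann_14 cells together in each replicate of each housing, with 95% Wilson intervals, a line at the mean of the housing and a dashed line at equal numbers. The points above the dashed line are replicates 3 and 4 at 22 °C, replicate 3 after 2 days and replicate 4 after 7 days at 5 °C.

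No difference in the ratio between housings was detected beyond this spread. The log2 ratio of Schwann_18 to Schwann_14 cells had a mean of -1.65 ± 1.27 in 7-day cold against 0.07 ± 1.796 at room temperature (SD, n = 4 libraries each), a difference of -1.72 (exact permutation p = 0.171, adjusted p = 0.651 over 6 comparisons). In 7-day cold against thermoneutrality, where thermoneutral replicate 2 with 8 Schwann cells was left out, it was -1.65 ± 1.27 (n = 4) and -1.82 ± 1.06 (n = 3), a difference of 0.17 (exact permutation p = 0.8, adjusted p = 0.8). That difference was -1.50 in the lower-numbered replicates, where thermoneutrality had replicate 1 alone, and 1.29 in the higher-numbered pair. Of the other 4 comparisons, room temperature against thermoneutrality gave the largest difference, 1.89. It was -0.75 in the lower-numbered replicates, again with thermoneutral replicate 1 alone, and 3.97 in the higher-numbered. These 4 comparisons had exact permutation p-values of 0.229 to 0.543, each with an adjusted p of 0.651. After adjustment a single comparison of 4 libraries against 4 or 3 could not have passed by itself. In a limma fit over the ratios of all tested clusters to Schwann_14, chosen after the data had been seen, 7-day cold against room temperature gave -1.72 ± 0.95 (adjusted p = 0.140, with 53.8% of the 26 clusters past the threshold). So the call of Schwann_14 and the missing call of Schwann_18 in that comparison were not shown to differ.

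Schwann_18 cells had few UMIs compared with the other named cells. Their median UMI count was 2642, with quartiles at 1833.5 and 3509.5 and a range of 822 to 19618, against a median of 7085 over all named cells. Only 19 of the 500 cells (3.8%) reached that median, and 8 cells (1.6%) had more than 10000 UMIs, against 32.4% of all named cells. With each library weighted equally, the cluster was number 25 of 28 by median UMIs, between VSM_21 with 3206.5 and Schwann_14 with 2885 UMIs, and number 26 by median genes, between EC_15 with 1433 and VSM-AP_6 with 1092.5 genes. Of the 11 libraries with at least 10 Schwann_18 cells, 6 had it among their 3 lowest clusters by UMIs and 6 by genes.

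Against Schwann_14 of the same library, Schwann_18 cells had fewer detected genes. In the 10 libraries with at least 10 cells of each cluster, the median was 1321 genes in Schwann_18 and 1687.5 in Schwann_14 in thermoneutral replicate 1. In room-temperature replicates 2 and 3 it was 1135 and 905 genes in Schwann_18 against 1461.5 and 1087 in Schwann_14. In 2-day cold replicates 2, 3 and 4 it was 1400, 1380 and 899 genes against 1592, 1442.5 and 1159. In 7-day cold replicates 1 to 4 it was 1633.5, 1926, 1240 and 1378.5 genes against 2049, 2337.5, 1336 and 1606.5. The Schwann_18 median was the lower in all 10 libraries, by 0.06 to 0.37 on the log2 scale. The mean difference was -0.25 ± 0.11 (SD, n = 10 libraries), or 16.1% fewer genes (exact sign-flip permutation p = 0.00195, the smallest this number of libraries allows, adjusted p = 0.00684 over 7 measures).

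The UMI counts behind these genes went both ways. The log2 difference of the medians was -0.12 ± 0.34 (SD, n = 10), lower in Schwann_18 in 7 libraries and higher in 3 (exact sign-flip permutation p = 0.293, adjusted p = 0.410). In 7-day cold replicate 3 the median was 3816 UMIs in Schwann_18 and 2383.5 in Schwann_14, although Schwann_18 had fewer genes there. Without that library the log2 UMI difference was -0.21, lower in Schwann_18 in 7 of 9 libraries (exact sign-flip permutation p = 0.0234, adjusted p = 0.0547). It was -0.26 in the 5 libraries of replicates 1 and 2 (exact sign-flip permutation p = 0.125) and 0.02 in the 5 of replicates 3 and 4. Complexity, which is log10 genes divided by log10 UMIs and falls as cells are read more deeply, was 0.905 ± 0.00871 in Schwann_18 and 0.915 ± 0.00909 in Schwann_14 (SD, n = 10). It was lower in Schwann_18 in 10 of 10 libraries, with a mean difference of -0.00961 (exact sign-flip permutation p = 0.00195, adjusted p = 0.00684). Among the 28 named clusters complexity was highest in Schwann_14, with a median over libraries of 0.917, and number 4 in Schwann_18 with 0.903, between Pericyte_12 with 0.915 and VSM_21 with 0.900.

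**Figure D3:**
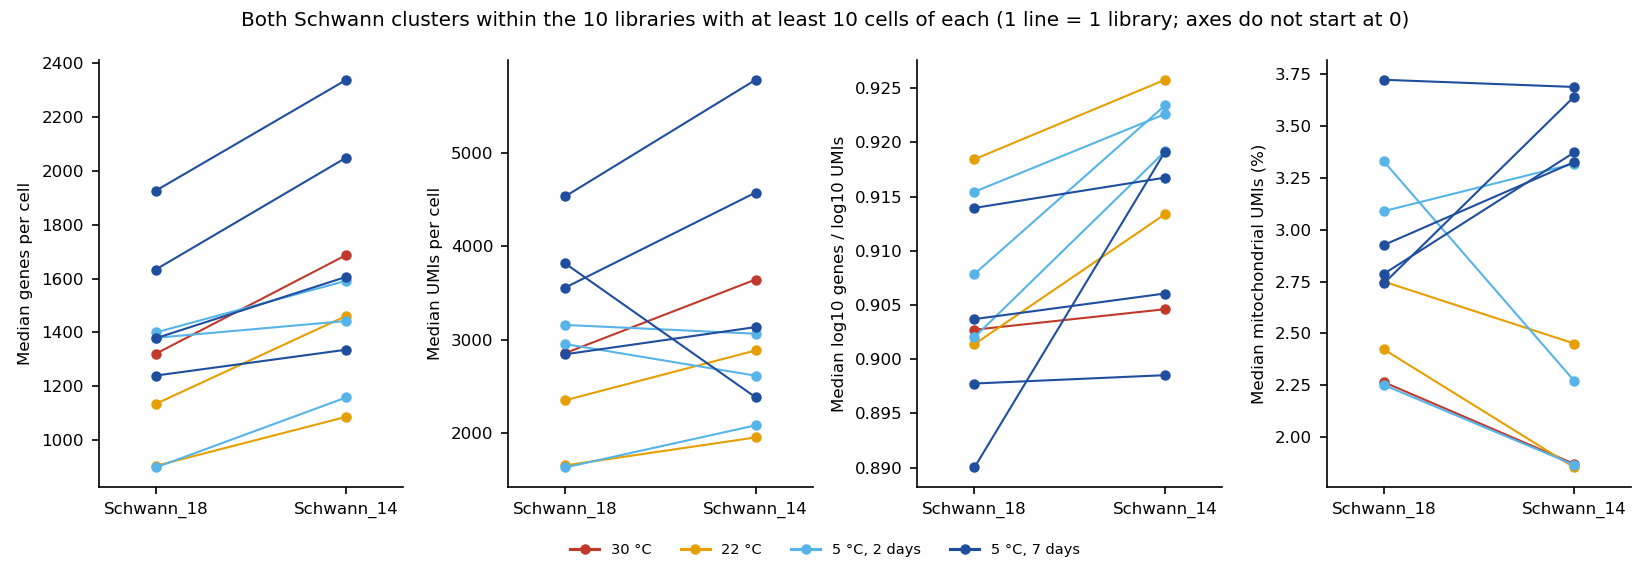
Median genes, median UMIs, median complexity and median mitochondrial percent of Schwann_18 (left) and Schwann_14 (right) within each of the 10 libraries with at least 10 cells of both, 1 line a library, coloured by housing. All 10 lines of genes and of complexity go up from Schwann_18 to Schwann_14, while those of UMIs and of the mitochondrial percent go both ways.

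The lower gene count remained among cells of like depth, with a smaller difference. When each Schwann_18 cell was set against the Schwann_14 cell of its library nearest in UMIs, within 10%, which used 447 Schwann_18 cells, the log2 difference in genes was -0.19 ± 0.14 (SD, n = 10 libraries) and again below 0 in all 10 (exact sign-flip permutation p = 0.00195, adjusted p = 0.00684). This matching was chosen after the data had been seen, and a Schwann_14 cell could be used more than once. Among cells of either cluster with 1833.5 to 3509.5 UMIs, the interquartile range of Schwann_18, the log2 difference in genes was -0.13 ± 0.07 (SD, n = 6 libraries), below 0 in all 6 (exact sign-flip permutation p = 0.0312, the smallest possible, adjusted p = 0.0437). With the cells of all libraries sorted by UMIs, Schwann_18 had the lower median in each of 7 ranges of depth. From 2000 to under 2500 UMIs it was 1118 genes over 80 Schwann_18 cells and 1237.5 over 116 Schwann_14 cells, and from 3000 to under 4000 UMIs it was 1518.5 over 104 cells and 1686 over 154. The clusters lay closest below 1500 UMIs, with 736 genes in Schwann_18 and 746 in Schwann_14. These ranges pool libraries, and room-temperature replicate 3 and 2-day replicate 3 held 51.2% of the Schwann_18 cells. Median UMIs also differed slightly within a range. From 2000 to under 2500 they were 2219 in Schwann_18 and 2251.5 in Schwann_14, and from 3000 to under 4000 they were 3395.5 and 3466. In the other ranges they were higher in Schwann_18. Because the authors formed both clusters from the expression of these cells, the number of genes seen in a cell is not wholly separate from its assignment.

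**Figure D4:**
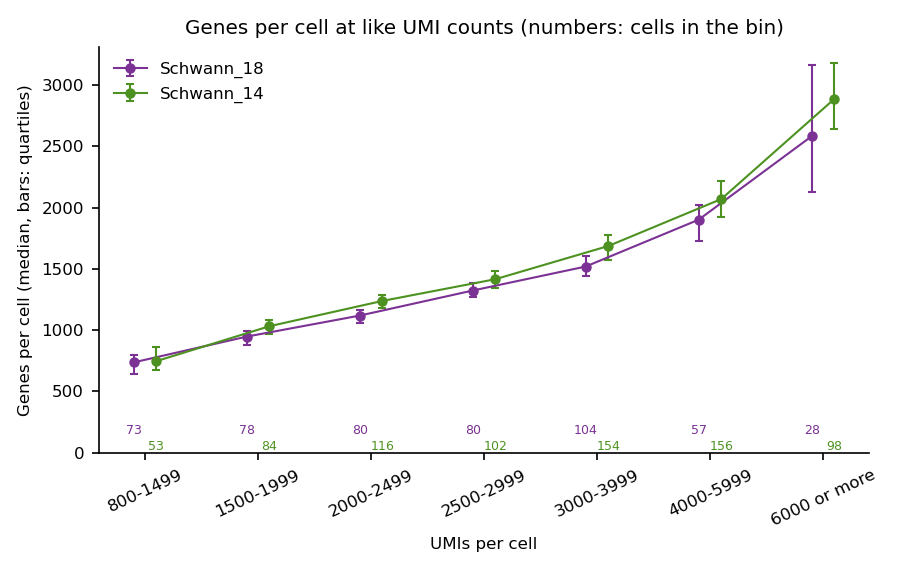
Median genes per cell with quartiles in 7 ranges of UMIs per cell, for Schwann_18 (purple) and Schwann_14 (green) cells of all libraries, with the number of cells under each point. The Schwann_18 median lay below that of Schwann_14 in every range, by 10 genes below 1500 UMIs and by more in the others.

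The mitochondrial share of UMIs, which is high in damaged cells and in cells rich in mitochondria, lay in the middle of the named clusters. With each library weighted equally, Schwann_18 was number 17 of 28 with 2.79%, between EC_10 with 3.40% and Schwann_14 with 2.66%. Over all its cells, Schwann_18 had a median of 2.82%, with quartiles at 2.15% and 3.61%, against 6.45% over all named cells. A single cell of the 500 reached 20%, whereas 7.02% of all named cells did. Within libraries the median was 2.83% ± 0.466 in Schwann_18 and 2.77% ± 0.773 in Schwann_14 (SD, n = 10), a difference of 0.0625 percentage points (exact sign-flip permutation p = 0.746, adjusted p = 0.746). It was higher in Schwann_18 in 6 libraries and lower in 4, with single differences of -0.900 to 1.06 points.

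The authors' phase calls put 132 Schwann_18 cells (26.4%) in S phase, the phase of DNA synthesis, 244 (48.8%) in G2M, the phases around division, and 124 (24.8%) in G1. With 76.9% called S or G2M as the median over libraries, the cluster was number 3 of 28, below EC_11 with 78.3% and level with EC_32 at 76.9%. A cell is called S or G2M as soon as either of its 2 gene scores is above 0, a rule that gave back the call of all 500 cells when it was applied to their scores. Scores above 0 were more frequent in Schwann_18 than over all named cells, but none exceeded 0.2. A score above 0.05 was held by 31% of Schwann_18 cells, against 20.2% of Schwann_14 and 14.5% of all named cells, and one above 0.1 by 6.8%, against 4.46% and 3.03%. These shares are over the cells of all libraries together, and room-temperature replicate 3 and 2-day replicate 3 held 51.2% of the Schwann_18 cells. Of the 376 cells called S or G2M, 221 had no score above 0.05, and 0 of the 500 cells had a score above 0.2. With each cell taken as independent, this allows a share of up to 0.6%, a limit that leaves out the spread between libraries. The highest S score in Schwann_18 was 0.182 and the highest G2M score 0.193, while scores over all named cells reached 0.897 and 1.50, and 227 of these cells (0.932%) lay above 0.2. In Schwann_14 the highest scores were 0.436 and 0.223, and 5 of its 763 cells (0.655%) lay above 0.2.

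The calls also depended on the table. In the table of all cells, where scores were computed separately, 220 of the 500 cells (44%) were called S or G2M, since 156 of the cells called in 1 table were G1 in the other. Of the Schwann_14 cells, 183 (24.0%) were called in the table of all cells and 484 (63.4%) in that of named cells. Within libraries, Schwann_18 had 70.7% ± 11.4 of its cells called and Schwann_14 64.3% ± 8.13 (SD, n = 10), a difference of 6.45 points that was above 0 in 8 libraries (exact sign-flip permutation p = 0.168, adjusted p = 0.294). The 2 libraries below 0 were 7-day replicates 3 and 4. The mean S score was -0.0110 in Schwann_18 and -0.0174 in Schwann_14 (exact sign-flip permutation p = 0.0371, adjusted p = 0.0866), and the mean G2M score 0.00767 and 0.00426 (adjusted p = 0.567). By the scores of the table of all cells both differences passed, at 0.0241 for S and 0.0126 for G2M, higher in Schwann_18 (exact sign-flip permutation, adjusted p = 0.00586 and 0.0381). The share called in that table was higher by 8.21 points, in 6 of 10 libraries, and did not pass (exact sign-flip permutation, adjusted p = 0.117). Room-temperature replicate 3 and 2-day replicate 3 were also left out together, a choice made after the data had been seen. In the named-cell table the differences were then 3.32 points in the share called, 0.00392 in the S score and 0.000797 in the G2M score (n = 8 libraries). None of these passed (exact sign-flip permutation, adjusted p = 0.711, 0.346 and 0.938).

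Among cells of like depth the share called gave different values by the way of matching. Within the interquartile UMI range of Schwann_18, which left 6 libraries with enough cells, the share called was higher in Schwann_18 in 6 of 6 libraries, by 14.1 points (exact sign-flip permutation p = 0.0312, the smallest possible, adjusted p = 0.0437). With cells matched one by one on UMIs, it was higher by 4.04 points over 10 libraries, above 0 in 6 and below 0 in 2 (exact sign-flip permutation p = 0.445, adjusted p = 0.727). Free RNA in the droplets can add to such scores, and its part was not tested.

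**Figure D5:**
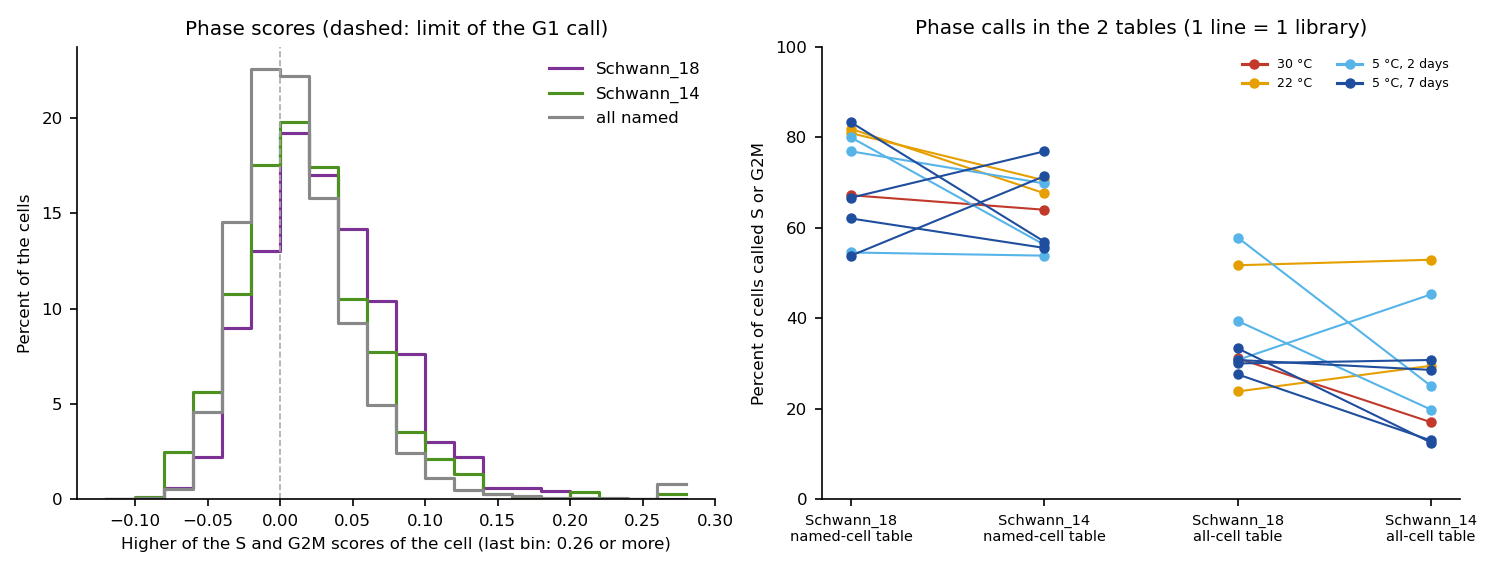
Left, distribution of the higher of the S and G2M scores of each cell in Schwann_18 (purple), Schwann_14 (green) and all named cells (grey), in bins of 0.02, with a dashed line at 0 where the G1 call ends. Right, percent of cells called S or G2M in both Schwann clusters of each library, by the calls of the named-cell table and by those of the all-cell table, in which Schwann_18 had 44% of all its cells called.

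Across housings the state of the Schwann_18 cells could be compared in few libraries, since 11 held 10 or more of them and thermoneutrality had 1 of these. The median UMI count was 3557, 4533, 3816 and 2844 in 7-day cold replicates 1 to 4, against 2352, 1655 and 3057 in room-temperature replicates 2 to 4. In 2-day cold it was 3158, 2953.5 and 1633 in replicates 2 to 4, and in thermoneutral replicate 1 it was 2856. The 7-day values lay mostly above the others, with 1 of the 4 inside their range. On the log2 scale 7-day cold was higher than room temperature by 0.67 (exact permutation p = 0.0857, adjusted p = 0.429 over 15 tests), which was the lowest p of the 15. In the same libraries Schwann_14 had medians of 4574.5, 5781, 2383.5 and 3135 UMIs in 7-day cold. At room temperature these were 2885, 1954.5 and 2642, the last from 6 cells. All named cells had medians of 5106, 6414, 4997 and 4932.5 against 8788, 4698.5 and 8262. Housing was not tested for these medians. The share of Schwann_18 cells called S or G2M was 53.8% to 83.3% in 7-day cold against 81.0% to 82.4% at room temperature, a difference of -15.3 points on average (exact permutation p = 0.143, adjusted p = 0.429). None of the 15 tests of UMIs, genes, mitochondrial percent, complexity and phase calls passed, and with 3 or 4 libraries a housing none could have passed the adjustment alone.

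The gene difference from Schwann_14 had the same sign in each housing. It was -0.35 on the log2 scale in the 1 thermoneutral library, -0.36 and -0.26 in the 2 room-temperature libraries, -0.37 to -0.06 in the 3 libraries of 2-day cold and -0.33 to -0.11 in the 4 of 7-day cold. Whether its size changes with housing was not tested.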

How the data were processed

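Single-cell libraries (16) were mapped and counted by the authors with STAR and Cell Ranger 3.0.1, genome mm10, as listed in the submitters' processing notes. The settings of filtering, integration and clustering were not given in the sources used here. Values deposited by the authors for each cell were whole-number counts of UMIs and of detected genes (also after SCTransform), a mitochondrial fraction from 0 to 1, shown here in percent, and a complexity ratio. They also deposited S and G2M scores with a phase call, and cluster numbers and names.

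From these, shares of named cells were computed per library. Clusters averaging 10 or more cells a library were fitted on the log2 odds scale (0.5 cells added) in limma 3.58.1 (R 4.3.3), 4 housings in 1 fit, with Benjamini-Hochberg adjustment within a comparison at a threshold of 0.05. Ratios and per-library medians (from at least 10 cells) were compared with two-sided exact permutation tests, adjusted within each family. edgeR 4.0.16 on cell numbers was an alternative. The scripts were tested on simulated data. The clusters named are both Schwann clusters and the neighbours of Schwann_18 in rank. Cells were not thinned to 1 depth. Members, lists and tests were chosen with earlier results of these data known. Intervals cover counting error only.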

Additional observations from a re-analysis of the deposited data

Results flagged for a closer look

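Of 22 groups of libraries examined for a value far from the rest, 4 had one, where chance flags about 1 in 20 groups. The groups share cells and libraries, so this number of flags cannot be judged against that rate. Thermoneutral replicate 1 stood far above the other 3 thermoneutral libraries, with Schwann_18 at 1.63% of named cells and cluster 37, which holds nearly all Schwann_18 cells, at 0.640% of all cells. Both of these flags count largely the same cells. In 2-day cold, replicate 3 stood apart with cluster 37 at 1.53% of all cells, against 0.180% to 0.404% in the other 3. Among the within-library differences, 7-day cold replicate 3 stood apart with a log2 UMI difference of 0.68 between Schwann_18 and Schwann_14, on 13 and 70 cells. A signal also lay outside the named cells: 2-day cold replicate 1, which has no named cell, held 31 cells of cluster 37, or 0.310% of its cells.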

How the results depend on the processing

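The fewer genes and lower complexity of Schwann_18 against Schwann_14 kept their direction under every alternative run, with -0.27 to -0.24 (log2 genes) and -0.0106 to -0.00744 (complexity) when single libraries were left out. Both calls were lost with at least 20 cells of each (7 libraries, -0.25 and -0.00821), in replicates 1 and 2 (-0.30 and -0.00683) and in 3 and 4 (-0.20 and -0.0124), where 5 libraries cannot pass. The S score difference passed with at least 5 cells (0.00616), in the interquartile UMI range (0.0136) and by the scores of all cells (0.0241), and ran from 0.00522 to 0.00789 without single libraries, passing without 7-day replicate 1 or 2. The G2M score difference passed in that range (0.0167) and by the scores of all cells (0.0126) and was -0.00243 in replicates 3 and 4. The S or G2M share passed in that range (14.1 points). The uncalled UMI difference was 0.0245 in replicates 3 and 4 and, where the choice of cells itself sets it near 0, 0.0067 in that range and 0.00208 after matching, and the mitochondrial one -0.0411 points after matching and -0.0481 to 0.169 without single libraries.

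For the share of Schwann_18, 7-day cold against thermoneutrality lost its call with edgeR (2.40), edgeR with TMM scaling (2.32), centred log ratios (2.25), all cells as the denominator (2.19), the VSM clusters left out (2.24) and cluster 37 (2.11), and ran from 2.57 to 3.77 without single libraries. For 2-day cold against thermoneutrality that range was 1.38 to 3.36. For 2-day cold against room temperature the estimate was -0.29 with centred log ratios, -0.35 over all cells, -0.31 without VSM clusters, -0.32 for cluster 37 and -1.002 to 0.99 without single libraries. For 7-day cold against room temperature it was -0.18 over all cells, -0.0146 without VSM clusters and -0.0628 for cluster 37. For 7-day against 2-day cold it was -0.22 with edgeR, -0.17 with TMM scaling and -0.34 to 1.65 without single libraries. The ratio to Schwann_14 ran from -0.45 to 0.73 (7-day cold against thermoneutrality) and from -1.50 to 0.0689 (7-day against 2-day cold). For Schwann_14, room temperature against thermoneutrality was -0.0059 with TMM scaling and -0.0438 with centred log ratios. The cause of these shifts was not tested. Leaving out VSM clusters, cluster 37 and UMI matching were chosen after the data had been seen. Too few Schwann_18 cells reached the median UMI count of named cells for a test.

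Clusters past the threshold in 7-day cold against thermoneutrality numbered 10, 4 to 14 without single libraries, 17 with a term for the lower- or higher-numbered replicates, 3 without VSM clusters and 0 over all cells or deep cells. Against room temperature they numbered 2, and 0 to 8 under the alternatives. Same-numbered libraries did not all deviate together (r of -0.30 to 0.65), and the labels do not say what the numbers stand for, so they were not taken as pairs. Deviations of libraries from different housings had a median r of 0.179 where both were of replicates 1 and 2 or both of 3 and 4, and of -0.195 otherwise. With the replicate block, Schwann_18 in 7-day cold against thermoneutrality was 3.03 ± 1.08 (limma, adjusted p = 0.0348), and 15 clusters passed there and 8 against room temperature.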

Other observations

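Cluster 37 of the table of all cells held 74 cells without a name beside the 496 named Schwann_18, and none with another name. The 31 of them in 2-day cold replicate 1 had a median of 2051 UMIs, 1085 genes and 3.87% mitochondrial UMIs, with 7.89% as the highest value, in a library whose cells had a median of 29.1% mitochondrial UMIs and 9819 UMIs. The other 43 unnamed cells, spread over other libraries, had a median of 5465 UMIs and 2027 genes, against 2628 UMIs and 1246.5 genes in the named cells of the cluster.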
